A study of Mus musculus with 6 samples.

Results

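The 10 transcription factors Pou5f1, Sox2, Nanog, Klf2, Klf4, Klf5, Esrrb, Tbx3, Tfcp2l1 and Sall4 form the core and naive pluripotency network, and their RNA was followed through muscle-derived stem cells (MDSC) and embryonic stem cells (ESC) of the mouse. Their probes were found by matching the RefSeq accession printed for each probe to these 10 gene symbols, with no use of signal. All 10 genes had a probe, 13 probes in all, out of 20018 genes and 55681 probes on the array. Tfcp2l1 had 2 probes and Sall4 had 3, and each probe is given on its own.

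The study asked where the potency of MDSC lies, judged by gene expression. MDSC were the slowest-adhering cells (preplate 6) of hindlimb muscle from male mice of 5 weeks, either wild type (WT) or labelled null for Mstn, the gene of the secreted muscle growth inhibitor myostatin, an allele the labels do not describe further. Each genotype gave 2 isolations, expanded to passage 1 and taken at 70% confluence. ESC were the W4 line, taken at passage 12 (replicate 1) and passage 15 (replicate 2), so their spread is that between passages of 1 line. No culture was treated. The labels call the ESC feeder free, while the growth protocol describes culture on mouse embryonic fibroblast feeders and a 20 minute plating step to remove them. Each of the 6 RNA samples was read on 1 array.

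Pou5f1 and Sox2 encode a POU and an HMG-box factor that bind DNA side by side at many enhancers of pluripotent cells, and Nanog, a homeodomain factor, shares many of those sites. Klf2, Klf4 and Klf5 are zinc finger factors, Esrrb an orphan nuclear receptor, Tbx3 a T-box factor and Tfcp2l1 a grainyhead-type factor, which together maintain the naive state that mouse ESC hold under leukaemia inhibitory factor (LIF). Sall4 is a zinc finger factor needed for ESC self-renewal. Several of the 10, the Klf factors and Tbx3 among them, are also used by adult tissues outside the pluripotent state.

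Promoter sequences of 4 of these genes are shown because their signals went separate ways: Pou5f1 and Sox2 were far lower in MDSC, whereas Nanog and Klf4 were not. Each is the 250 bases before the annotated start (the first of 2 starts in the table for Pou5f1 and Nanog), from RefSeq on GRCm38.p6, read 5′ to 3′ on the gene's strand. Capitals mark matches on either strand to any of 4 motifs: the octamer ATGCAAA of POU factors, the SOX motif ACAATG, the nuclear receptor half-site AGGTCA and the GC box GGGCGG. The motifs were chosen with the sequences in view, and a match is only a match of letters.
Pou5f1, chr17:35505782-35506031, plus strand: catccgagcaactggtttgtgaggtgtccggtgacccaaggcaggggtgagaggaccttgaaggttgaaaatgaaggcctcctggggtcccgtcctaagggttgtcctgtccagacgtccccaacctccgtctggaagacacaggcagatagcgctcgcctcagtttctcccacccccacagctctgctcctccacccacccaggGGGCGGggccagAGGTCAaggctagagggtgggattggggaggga
Sox2, chr3:34649745-34649994, plus strand: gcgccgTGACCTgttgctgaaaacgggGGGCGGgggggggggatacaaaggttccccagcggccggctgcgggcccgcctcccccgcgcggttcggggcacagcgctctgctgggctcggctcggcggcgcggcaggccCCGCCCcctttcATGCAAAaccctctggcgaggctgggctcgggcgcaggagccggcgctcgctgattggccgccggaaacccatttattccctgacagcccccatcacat
Nanog, chr6:122707239-122707488, plus strand: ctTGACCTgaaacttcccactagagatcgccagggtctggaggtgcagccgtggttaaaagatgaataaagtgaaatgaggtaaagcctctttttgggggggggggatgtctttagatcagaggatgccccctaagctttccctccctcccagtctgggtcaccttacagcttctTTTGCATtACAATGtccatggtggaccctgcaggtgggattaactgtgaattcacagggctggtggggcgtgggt
Klf4, chr4:55532476-55532725, minus strand: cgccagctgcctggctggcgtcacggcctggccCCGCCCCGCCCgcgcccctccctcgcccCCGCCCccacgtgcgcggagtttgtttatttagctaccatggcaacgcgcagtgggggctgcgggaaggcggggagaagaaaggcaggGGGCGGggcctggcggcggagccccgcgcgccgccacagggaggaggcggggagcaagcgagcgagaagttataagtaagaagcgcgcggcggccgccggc
In the Nanog promoter an octamer on the reverse strand, 75 to 69 bases before the start, was followed by a SOX motif at 67 to 62 bases. Octamers were found in 4.12% of 32851 promoter windows of this length, and SOX motifs in 3512 of them. The Sox2 promoter held an octamer at 99 to 93 bases before the start. The Pou5f1 promoter held a nuclear receptor half-site at 33 to 28 bases, a motif of 14% of windows, next to a GC box at 45 to 40 bases. The second Pou5f1 window held a SOX motif and no half-site, and the Sox2 and Nanog windows shown also held a half-site, far from the start. The Klf4 promoter held 4 GC boxes, of which the 2 farthest from the start share a base, and 32.7% of windows held at least 1. Observed over expected CpG was 0.941 for Klf4 and 0.833 for Sox2, against 0.334 for Pou5f1, 0.182 for Nanog and a median of 0.374 over all windows. The table matched 7 of the 10 genes; Klf5, Tbx3 and Sall4 were not matched.

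The arrays were even in quality. Each held 59305 non-control spots, 53.3% to 64.6% of them well above background by the scanner software's own test and 0 saturated. A level is the log2 of the processed signal minus that of the array's 75th percentile, so 0 stands for that percentile, and levels of different probes cannot be set against each other. For these probes the software gave an error of about 10% for bright spots (10.2% at most in ESC), and of 40.3% to 101% for the 5 probes that were well above background on no MDSC array. As a check of the labels, all 15 probes of 10 pluripotent cell markers cleared background on each ESC array, and 8 of the 15 on each MDSC array. Fibroblast markers cleared background with 10 of 10 probes on every MDSC array, and with 10 and 9 on the ESC arrays.

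Against ESC, most of the network was lower in MDSC, some of it not well above background there, but 3 genes had a probe of nearly equal or higher signal. Of the 13 probes, 10 (from 8 genes) were lower in MDSC, 1 was higher (Nanog), and 2 did not pass the test (Klf4 and 1 probe of Sall4). Of the 10, 4 were measured on all 6 arrays, as were 7 of the 13. Another 5 were well above background on no MDSC array, and Sox2 on 1. Such dim probes entered the test only through ESC, where they were bright, so lower was nearly their only possible call. The same holds for each genotype against ESC and for the gene lists below. Tests were limma fits over 33716 probes with an adjusted p below 0.05 as the threshold. Of all probes tested, 58.9% were called in this comparison, 31.6% as lower and 27.3% as higher, so a call by itself is common here. The median difference of the 13 probes, dim ones included, was -5.28 on the log2 scale, against -0.05 over all probes tested. That median is the fitted value of a dim probe, Sall4 A_55_P2173546, whose bound is only 3.37, so its size depends on background signal. The arrays of the sides did not overlap for 12 of the 13 probes, compared with 68.7% of all probes. The dim probes are among the 12, and the filter left them little room to overlap. RNA was measured in bulk, so fewer cells of a type and less RNA per cell cannot be told apart.

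**Figure D1:**
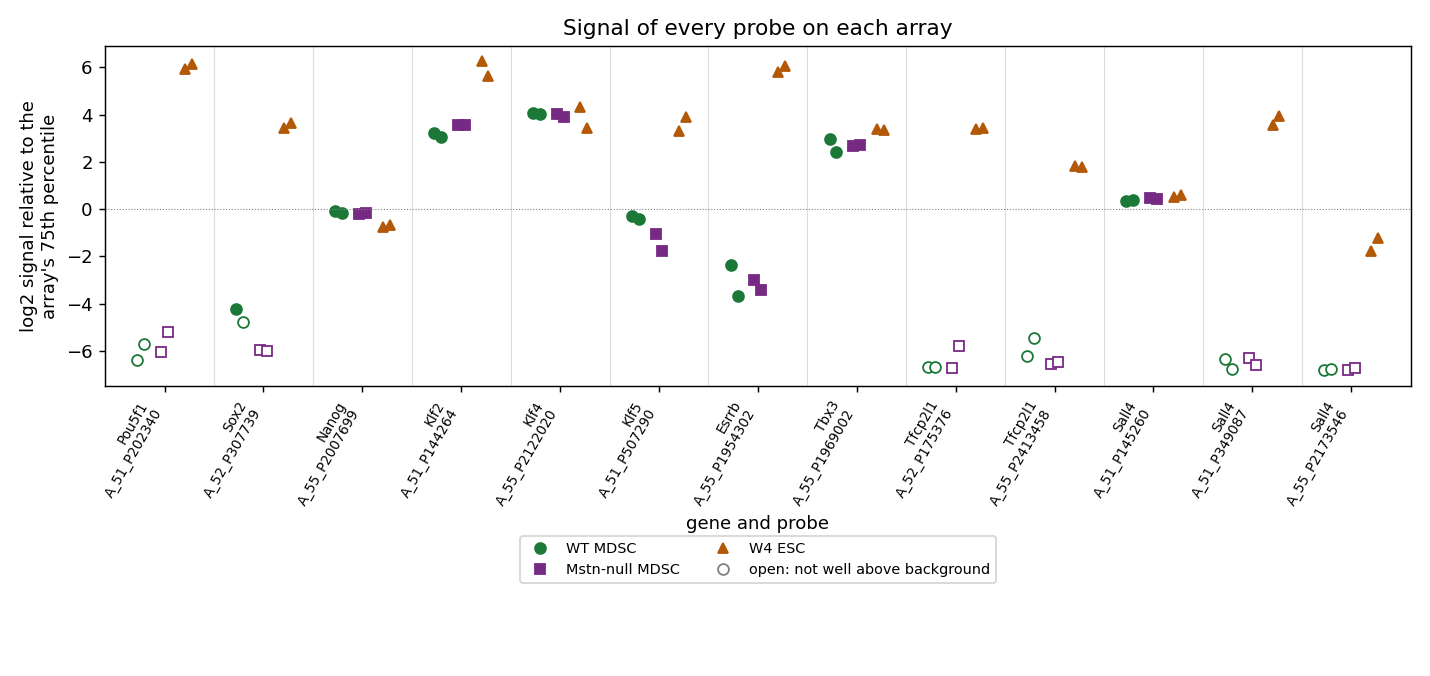
Log2 signal relative to each array's 75th percentile (vertical axis) of all 13 probes of the 10 factors (horizontal axis) on each of the 6 arrays; circles are WT MDSC, squares Mstn-null MDSC and triangles W4 ESC, and open symbols were not well above background. Pou5f1, Tfcp2l1 and 2 probes of Sall4 are open on all 4 MDSC arrays, while Nanog, Klf4, Tbx3 and 1 probe of Sall4 lie close together in all groups; heights of different probes are not comparable.

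Pou5f1, the factor without which the pluripotent state is lost, was bright on both ESC arrays and not well above background on any MDSC array. Its level (probe A_51_P202340) was 5.94 and 6.16 in ESC, -6.39 and -5.69 in WT MDSC, and -6.03 and -5.19 in Mstn-null MDSC. The groups were far apart, and the MDSC values are only an upper limit of the signal. By a bound on the ratio, Pou5f1 signal in ESC exceeded that in MDSC at least 1939-fold (adjusted p of the fitted difference = 6.28e-05, limma). This bound sets the ESC mean against the lowest signal well above background on each MDSC array, or the probe's own where higher. It holds only for this scaling and is not a detection limit. With normexp background correction the fitted difference was -8.72, smaller in size than the bound's 10.9 on the log2 scale. Every ratio given below as at least some value is such a bound. The bound was 1885-fold against WT and 1994-fold against Mstn-null MDSC. A probe named for the related sequence Pou5f1-rs4 (A_55_P2129498) gave 4.59 and 4.80 in ESC and -6.94 to -6.79 in MDSC, again not well above background there. Across the 6 arrays it had the pattern nearest to that of Pou5f1, with a root mean square distance of 0.35 after centring each probe on its mean. Fgf4 (0.47) and Zfp42 (0.48) came next among 20167 named probes.

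Sox2, the partner of Pou5f1, was also far lower in MDSC. Its level (A_52_P307739) was 3.43 and 3.65 in ESC, -4.20 and -4.79 in WT MDSC, and -5.96 and -6.00 in Mstn-null MDSC. Of the 4 MDSC arrays, only WT replicate 1 was well above background. The fitted difference between MDSC and ESC was -8.78 ± 0.22 (SE; adjusted p = 5.39e-05, limma), a size that rests on background signal on 3 of the 4 MDSC arrays and was -6.29 with normexp background correction. By the bound, Sox2 was at least 350.2-fold higher in ESC than in Mstn-null MDSC.

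Nanog, the third core factor, had another pattern. Its only probe (A_55_P2007699) was well above background on all 6 arrays, with levels of -0.07 and -0.18 in WT MDSC, -0.20 and -0.15 in Mstn-null MDSC, and -0.77 and -0.66 in ESC. All 4 MDSC arrays thus lay slightly above both ESC arrays. The difference was 0.56 ± 0.14 (SE) on the log2 scale, a 1.48-fold higher signal in MDSC with a 95% confidence interval of 1.16 to 1.89 (adjusted p = 0.020, limma). The call ended on leaving out replicate 1 of WT, of Mstn-null or of ESC, or replicate 2 of Mstn-null. With any 1 array left out the difference stayed within 0.51 to 0.61. Slide 2 held no WT array, so it gives only Mstn-null MDSC against ESC, where Nanog did not pass (0.54; adjusted p = 0.0577, limma). The spread over the 6 arrays was 0.69 on the log2 scale, against 12.5 for Pou5f1. Of 20167 named probes, 2575 lay within a distance of 0.25 of it, the nearest being Sra1 (0.028), Fam91a1 (0.030) and Gm10318 (0.032). That cut is wide beside the small spread of Nanog. It can take in nearly level probes, so the count does not show how common a higher signal in MDSC is. Which transcript the Nanog probe detects was not tested.

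The 3 Klf factors of the naive network each behaved differently. Klf2 (A_51_P144264) was well above background throughout, at 3.22 and 3.05 in WT MDSC, 3.54 and 3.58 in Mstn-null MDSC, and 6.26 and 5.63 in ESC. It was lower in MDSC by 6.03-fold (log2 difference -2.59 ± 0.22 SE; adjusted p = 0.00092, limma). Klf5 (A_51_P507290) was also measured on every array, at -0.29 and -0.41 in WT MDSC, -1.04 and -1.77 in Mstn-null MDSC, and 3.32 and 3.89 in ESC. Its MDSC signal was 22.3-fold lower (log2 difference -4.48 ± 0.29 SE; adjusted p = 0.00046, limma). For both genes every MDSC array lay below every ESC array.

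Klf4, a reprogramming factor that is also active in epithelia and vessel walls, had signals in MDSC within the range of the ESC arrays. Its level (A_55_P2122020) was 4.09 and 4.03 in WT MDSC, 4.01 and 3.91 in Mstn-null MDSC, and 4.34 and 3.44 in ESC. The 4 MDSC arrays lay within 0.18 of each other and between the ESC passages, which differed by 0.91. The difference of 0.12 ± 0.28 (SE) did not pass the test (adjusted p = 0.735, limma), and its 95% confidence interval ran from 0.66-fold to 1.79-fold. The sign followed the ESC array used: with passage 12 as the only ESC array (replicate 2 left out) it was -0.34, and with passage 15 alone it was 0.57. The passage 12 array, with the higher Klf4, also had the higher summed signal of the 10 fibroblast and feeder marker probes, 88.0 against 43.1 times the 75th percentile signal, compared with 986 to 2017 in MDSC, and their part in the Klf4 signal was not tested. The patterns nearest to Klf4 were those of Snhg10 (distance 0.063), Nxt2 (0.086) and Coa8 (0.087). Another 0.25 cut held 352 named probes, and it too is wide beside the small spread of Klf4.

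Of the other naive factors, Esrrb and Tfcp2l1 were far lower in MDSC and Tbx3 only slightly. Esrrb (A_55_P1954302), a nuclear receptor that responds to Wnt input in self-renewal, was at 5.80 and 6.06 in ESC, -2.37 and -3.67 in WT MDSC, and -3.01 and -3.44 in Mstn-null MDSC. The signal cleared background in every MDSC culture, so this is a measured difference of -9.05 ± 0.40 (SE), or 530.1-fold (adjusted p = 0.00019, limma). Its MDSC signals were dim, at 46.7 to 111 intensity units, and the smallest fitted difference among the alternatives was -8.00. The WT arrays differed from each other by more than the means of the genotypes did.

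Tfcp2l1, a target of LIF and STAT3 signalling, was seen by both of its probes in ESC and by neither in MDSC. Probe A_52_P175376 was at 3.41 and 3.44 in ESC and from -6.72 to -5.78 in MDSC, at least 315-fold higher in ESC. Probe A_55_P2413458 was at 1.85 and 1.78 in ESC and from -6.53 to -5.43 in MDSC, at least 103-fold higher (adjusted p = 7.03e-05 and 8.00e-05, limma). The probes gave the same direction with bounds of unlike size. Among the alternatives, the smallest fitted differences were -6.23 and -4.76, short of these bounds (8.30 and 6.69 on the log2 scale).

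Tbx3 (A_55_P1969002), a repressor that limb and other mesenchyme also use, was at 2.97 and 2.42 in WT MDSC, 2.70 and 2.70 in Mstn-null MDSC, and 3.40 and 3.37 in ESC. Every MDSC array lay below both ESC arrays. The difference of -0.69 ± 0.20 (SE), 1.61-fold lower in MDSC, passed the test over both genotypes (adjusted p = 0.0334, limma) but not for WT (0.0551) or Mstn-null MDSC (0.0554) alone. Alone, they passed in 4 of 16 alternatives for WT (0.0315 without WT replicate 1) and in 7 of 17 for Mstn-null MDSC (0.0292 within slide 2, and 0.0317 with either WT array left out). Leaving out either Mstn-null array ended the call over both genotypes (adjusted p = 0.0870 and 0.0885 for replicates 1 and 2), as did leaving out either ESC array (0.111 and 0.105) and median centring (0.117).

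The 3 probes of Sall4, all assigned to the same transcript accession, did not give 1 answer. Probe A_51_P349087 was at 3.58 and 3.93 in ESC and from -6.75 to -6.29 in MDSC, where no array was well above background, and was at least 395-fold higher in ESC (adjusted p = 4.18e-05, limma). Probe A_55_P2173546 was dimmer in ESC, at -1.76 and -1.24, and from -6.82 to -6.74 in MDSC, again never well above background, for a bound of at least 10.4-fold (adjusted p = 0.00013, limma). Among the alternatives, the smallest fitted differences of these probes were -6.57 and -2.00, short of their bounds (8.63 and 3.37 on the log2 scale). Probe A_51_P145260 was well above background on all 6 arrays and nearly level. It was at 0.37 and 0.40 in WT MDSC, 0.47 and 0.44 in Mstn-null MDSC, and 0.53 and 0.59 in ESC, a range of 0.22 over all arrays. Its difference of -0.14 ± 0.13 (SE) did not pass the test (adjusted p = 0.401, limma), with a 95% confidence interval of 0.72-fold to 1.15-fold, and was 0.0039 with median centring. Averaging the 3 probes gave -5.22 ± 0.16 (SE), which hides the level one. Which sequences the probes hold was not tested.

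**Figure D2:**
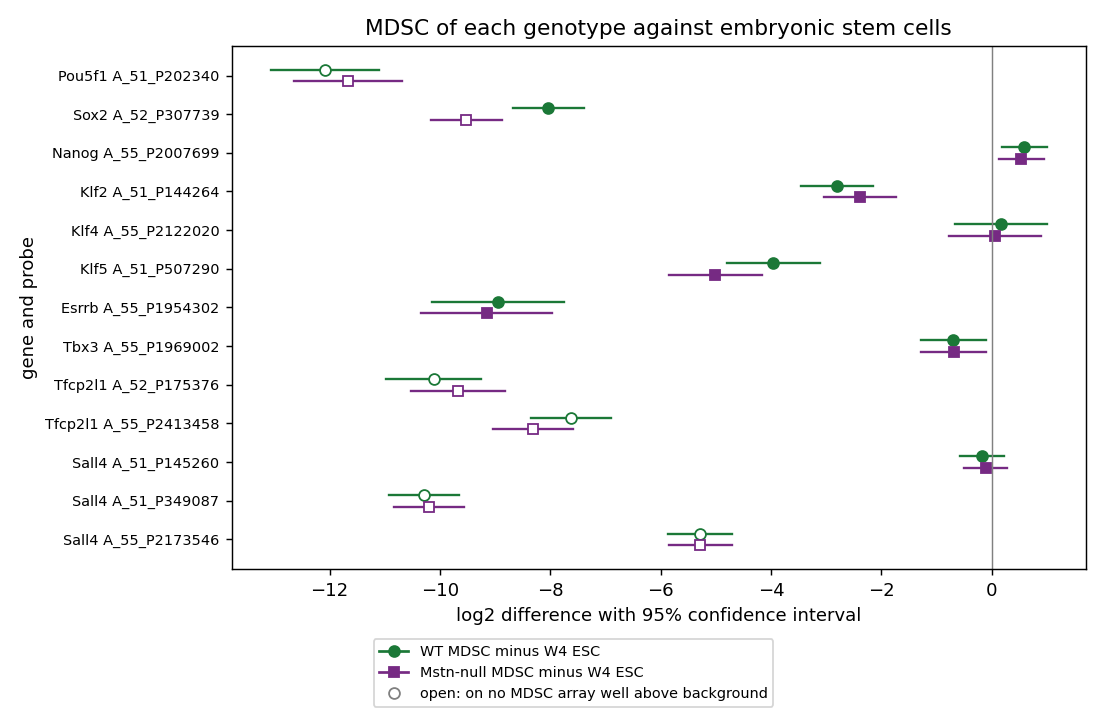
Log2 difference between MDSC and W4 ESC (horizontal axis) for each probe (vertical axis), with its 95% confidence interval from limma; circles are WT and squares Mstn-null MDSC, and open symbols mark a genotype with no array well above background. The intervals of Nanog lie just above 0 and those of Klf4 and the Sall4 probe A_51_P145260 span 0, while Pou5f1 lies lowest; where symbols are open the fitted value depends on background signal and the bounds in the text apply.

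Each genotype was also set against ESC on its own. With WT MDSC alone, 9 of the 13 probes were lower, 1 was higher and 3 did not pass, where 52.6% of all probes were called, 26.1% as lower and 26.5% as higher. With Mstn-null MDSC alone the counts were again 9, 1 and 3, with 53.5% of all probes called, 31% as lower and 22.5% as higher. Both comparisons use the same ESC arrays, so they are not independent. Nanog was the higher probe in each, at 0.59 ± 0.16 (SE; adjusted p = 0.0305, limma) for WT and 0.54 ± 0.16 (SE; adjusted p = 0.0389) for Mstn-null MDSC. Leaving out any single array ended the Nanog call in either genotype. The difference itself stayed within 0.54 to 0.64 for WT and 0.49 to 0.59 for Mstn-null MDSC. Leaving out an array of the other genotype left the difference unchanged, so there only the error estimate and its degrees of freedom changed. The WT arrays were on slide 1 and all others on slide 2, so WT and slide cannot be told apart. Mstn-null MDSC and ESC shared slide 2, where 10 of the 13 probes were lower and 0 higher. Of all 32653 probes tested there, 10052 were lower and 7192 higher.

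Between Mstn-null and WT MDSC 0 of the 13 probes passed the test in limma, and 2 had an unadjusted p below 0.05. Over all 33716 probes, 8 (0.0237%) passed the test and 14.7% had an unadjusted p below 0.05. The arrays of the genotypes did not overlap for 6 of the 13 probes, compared with 51.5% of all probes. Groups of 2 arrays leave wide intervals, so a difference that did not pass is not shown to be absent.

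Sox2 and Klf5 were the probes with an unadjusted p below 0.05, both with lower signals in Mstn-null MDSC. For Sox2 the fitted difference was -1.48 ± 0.25 (SE; adjusted p = 0.0997, limma), but WT replicate 1 was the only array of the 4 well above background. The bound on the WT to Mstn-null ratio was only 1.34-fold, and the fitted difference shrank to -0.40 with normexp. For Klf5, measured on all 4 arrays, it was -1.05 ± 0.33 (SE; adjusted p = 0.246, limma), a 2.08-fold difference with a 95% confidence interval on the log2 scale of -1.90 to -0.21. The summed signal of 14 macrophage marker probes was also unequal between the genotypes. It was 69.6 and 51.9 times the 75th percentile signal in WT and 112 and 319 in Mstn-null MDSC, with 13 or 14 probes well above background on each array. The brightest of them in WT, Itgam probe A_55_P1977934, made up much of the WT sums and was slightly lower in Mstn-null MDSC. The median log2 difference of the 14 probes was 3.14, and 0 of them passed the limma test between the genotypes. The summed signal of 6 myogenic marker probes was 17.3 and 2.66 in WT and 1.88 and 1.17 in Mstn-null MDSC, with 4 or 5 probes well above background. Their part in the Sox2 and Klf5 values was not tested.

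The remaining factors differed less between genotypes. Klf2 differed by 0.43 ± 0.26 (SE), with both Mstn-null arrays above both WT arrays. Nanog, Klf4, Esrrb and Tbx3 differed by -0.05, -0.10, -0.21 and 0.00, and the well-measured Sall4 probe A_51_P145260 by 0.07. For Nanog the 95% confidence interval of -0.46 to 0.36 leaves room for changes of up to 1.37-fold. Pou5f1, Tfcp2l1 and the other Sall4 probes were not well above background in either genotype and give no fold.

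**Figure D3:**
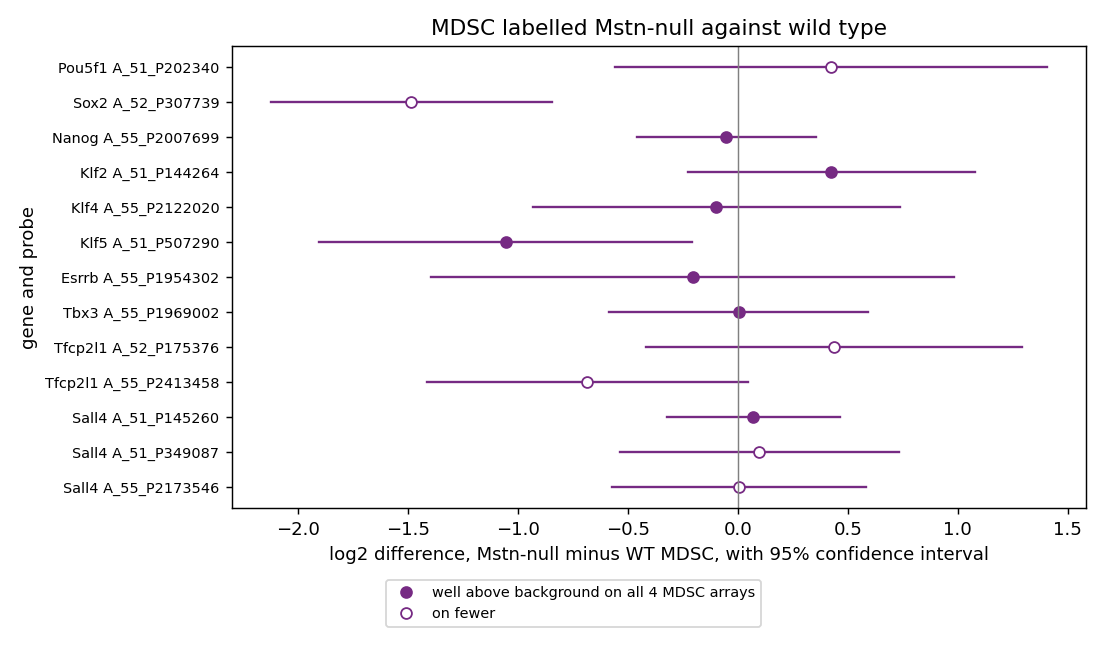
Log2 difference between Mstn-null and WT MDSC (horizontal axis) for each probe (vertical axis), with its 95% confidence interval from limma; filled symbols cleared background in all 4 MDSC cultures. The intervals of Sox2 and Klf5 lie below 0 before adjustment for the 33716 probes tested, and none of the 13 passes after it.

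Regulators of pluripotency outside the 10 were read from a list of 24 genes with 32 probes. Of these, 30 probes from 23 genes were lower in MDSC than in ESC and 0 were higher, beside 31.6% and 27.3% of all probes. The median difference was -5.91 against -0.05 over all probes. Zfp42, a zinc finger marker of naive ESC, had the lowest fitted value, with an ESC signal at least 1762-fold that of MDSC. It and many others on the list were not well above background in MDSC, so their falls are bounds without an order. The probes that did not pass were the only one of Myc, the growth regulator, at 0.21 ± 0.32 (SE), and 1 of the 2 probes of Zfp57, at -0.39 ± 0.18 (SE). Among genes of the primed state, 13 of 14 tested probes were lower in MDSC and none was higher, beside the same 31.6% and 27.3% of all probes. Dnmt3b, a de novo DNA methyltransferase, led them at -8.72 ± 0.30 (SE; adjusted p = 0.00010, limma). Fgf5, a classic primed marker, did not pass (-1.79 ± 0.68 SE). Naive and primed regulators were thus both lower in MDSC. Sox3, Foxd3, T, Pou3f1, Sall1, Zfp42, Dppa4 and Utf1 stand in more than 1 of the lists used here. Zfp42, Dppa4 and Utf1 are also among the pluripotent cell markers of the label check, so that check and this list share genes.

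The LIF pathway, which feeds Klf4 and Tfcp2l1 in ESC, had probes in both directions. Of 15 probes from 12 genes, 7 were higher in MDSC, 6 were lower and 2 did not pass, beside 27.3% higher and 31.6% lower among all probes. The signal transducer Il6st rose most, with a difference of 3.38 ± 0.22 (SE; adjusted p = 0.00050, limma), and the kinases Jak1 and Jak2, Stat3 by both probes, the phosphatase Ptpn11 and Lif itself were also higher. The adaptor Gab1 was lowest, at -3.99 ± 0.25 (SE; adjusted p = 0.00041, limma), and the receptor Lifr by all 3 of its probes, Pim1 and Pim3 were also lower. The feedback inhibitor Socs3 (0.70 ± 0.34 SE) and the kinase Tyk2 (-0.42 ± 0.24 SE) did not pass.

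The other members of each factor's gene family came next. Among the other Klf genes, 2 of 14 tested probes were higher in MDSC and 9 were lower, with a median of -1.03. Of all probes, 27.3% were higher and 31.6% lower. A probe cleared background in every MDSC culture for 10 of these 14 genes: Klf3 and Klf6 were higher than in ESC (0.95 and 0.84), Klf8, Klf12, Klf16, Klf9, Klf10 and Klf13 were lower (-3.59, -1.46, -1.23, -1.05, -1.02 and -0.78), and Klf7 and Klf11 had differences of 0.25 and -0.95 that did not pass. Standard errors of these 10 differences were between 0.14 and 0.38.

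Of 14 tested probes of T-box genes, 5 were higher and 5 lower in MDSC, where 27.3% and 31.6% of all probes were. Tbx18 and Tbx15, genes of limb and body wall mesenchyme, were higher by 5.16 ± 0.36 and 4.44 ± 0.23 (SE) on the log2 scale, although Tbx18 was well above background on only 1 of the ESC arrays. Tbx5, again well above background on only 1 ESC array, Tbx4 and Tbx10 were also higher (2.00, 1.48 and 0.51) and Mga was lower (-1.78). For T, which encodes brachyury, the ESC signal was at least 13.8-fold that of MDSC. Tbx2, the nearest relative of Tbx3, cleared background in every MDSC culture and on 1 ESC array, and its difference of 2.47 ± 1.06 (SE) did not pass; nor did the probes of Tbx6, at 0.01 and -0.53.

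Of 19 tested probes of other Sox genes, 4 were higher in MDSC and 10 lower, beside 27.3% and 31.6% of all probes. Sox9, a cartilage and progenitor factor, was higher by a fitted 4.37 ± 0.94 (SE; adjusted p = 0.0132, limma), with only 1 of the ESC arrays well above background, and Sox4 by both probes (1.41 and 1.47) and Sox10 (1.09) were also higher. Sox3, the close relative of Sox2, had an ESC signal at least 71.8-fold that of MDSC, and Sox11 was lower in MDSC by both probes (-2.18 and -1.88). The other Sox genes that cleared background in every MDSC culture were Sox21, lower by 0.45 with 1 of its probes, and Sox1, Sox13 and Sox14, whose differences of 0.03 and 0.42, -0.46 and 0.29 did not pass.

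Among other POU genes, 1 of 9 tested probes was higher in MDSC, 5 were lower and 3 did not pass. Of all probes, 27.3% were higher and 31.6% lower. The ESC signal of Pou4f2 was at least 11-fold that of MDSC. Of those measured on all MDSC arrays, Pou3f1, Pou4f1 and both probes of Pou2f1, the broadly expressed octamer factor, were lower (-5.03, -2.64, -3.00 and -0.63), and Pou2f2 and Pou2f3 did not pass (-0.52 and 0.05). The ESC signal of Sall1 was at least 84.9-fold that of MDSC, while Sall2, measured on all 6 arrays, had a difference of 0.03 ± 0.22 (SE). Esrra, the relative of Esrrb that controls mitochondrial genes, was higher in MDSC by 0.93 ± 0.15 (SE), Ubp1 of the Tfcp2 family was lower by 1.04, and Tfcp2 had a difference of 0.13. None of the probes on these lists passed the limma test between Mstn-null and WT MDSC.

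**Figure D4:**
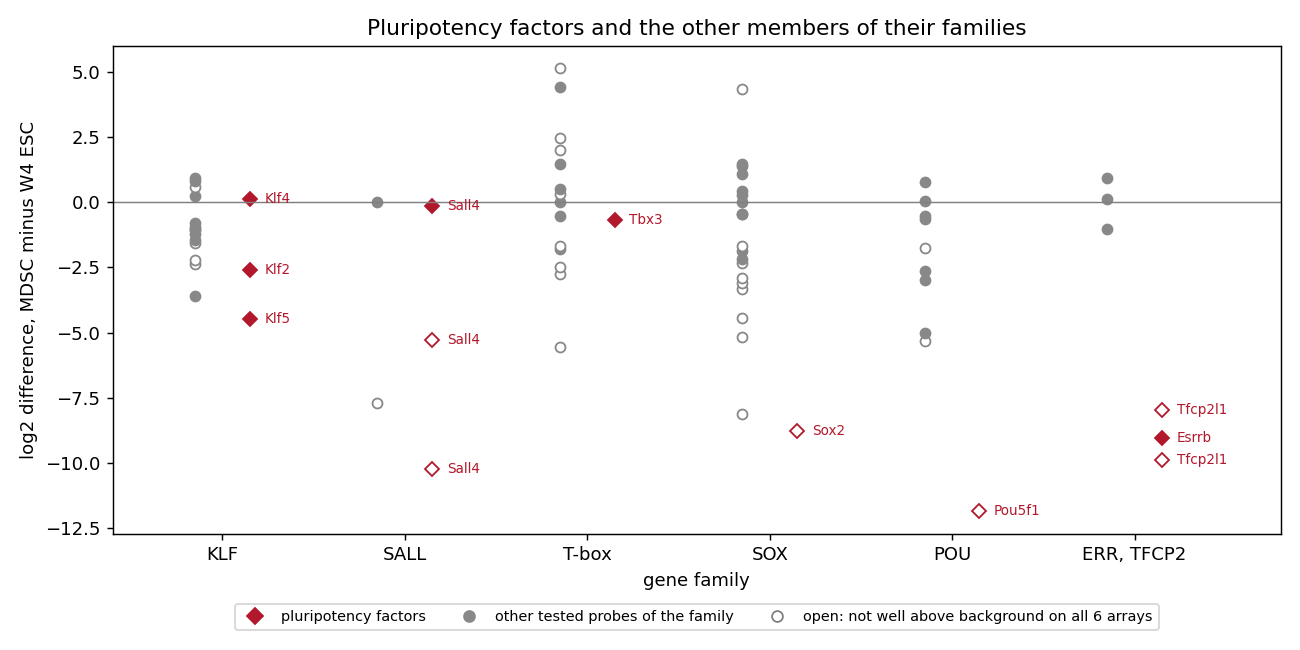
Log2 difference between MDSC and W4 ESC (vertical axis) for the pluripotency factors (red diamonds, named) and for all other tested probes of their gene families (grey circles), grouped by family (horizontal axis); open symbols were not well above background on all 6 arrays. Pou5f1, Sox2, Klf5, a Tfcp2l1 probe and a Sall4 probe have the lowest fitted points of their families, whereas Klf4 and Tbx3 lie among their relatives. Fitted values of open symbols depend on background signal, so the Tfcp2l1 probe is not shown to lie below Esrrb.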

How the data were processed

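RNA was labelled with Cy3 and read on 1-colour Agilent arrays, per the labels' protocols. The deposited files are scanner output, 1 array each. Their spot intensities were made by the authors with Agilent Feature Extraction (10.7.1.1 in the file headers, 9.1 in the submitters' processing notes) and are background corrected, not scaled between arrays, per the file headers. Here, spots with an outlier flag (100 to 122 an array) were dropped, the log2 of each array's 75th percentile (550.0 to 647 intensity units) was subtracted, and repeated spots were averaged. Testing needed a probe to clear background, by the software's call, on both arrays of some group, as 33716 of 55681 did. A RefSeq table of GRCm38.p6 gave symbols to 26413 probes.

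Group means were fitted with limma 3.58.1 in R 4.3.3 over all 6 arrays (two-sided; residual degrees of freedom 3, prior 2.06). Benjamini-Hochberg adjustment ran over every tested probe. The MDSC value in MDSC versus ESC weights both genotypes equally. An exact permutation test of 2 arrays against 2 has a smallest p of 0.333 and was not used. The error pools the spread between isolations and between passages of the ESC line, so no spread between ESC lines enters, and the number of arrays limits all precision.

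The genes, gene lists and cell type markers were chosen with earlier results of these data known. By the naming rule, every probe of the 10 genes is given, and from each list the largest fitted rise and fall among calls and the family members that cleared background in every MDSC culture. Other list genes named were chosen after seeing their values. The result of 1 list gene is not reported here. The limma fit was tried on simulated data first, for MDSC versus ESC and for Mstn-null versus WT MDSC, and the other steps were not. Alternatives were quantile normalization, median centring, normexp (offset 50; on median signals, as the files hold no mean), other filters on dim probes, flags kept, the brightest probe or the mean per gene, a variance trend, only the compared groups, a replicate block, slide 2 by itself, and each array left out.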

Additional observations from a re-analysis of the deposited data

How the results depend on the processing

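Of the 52 differences of a member probe in a comparison, 31 were called, and 27 of these kept their direction and call under every alternative that tested them. The exceptions were Nanog in the 3 comparisons with ESC and Tbx3 in MDSC versus ESC. The 31 are not independent, since they repeat probes over 3 comparisons that share the ESC arrays. Many of the 27 are of dim probes, for which lower was nearly the only possible call. Of all probes, 58.9%, 52.6% and 53.5% were called in MDSC, WT MDSC and Mstn-null MDSC versus ESC. With 2 arrays a group and signals near background for 6 probes in MDSC, the size of the largest differences is limited by background: normexp moved that of Pou5f1 from -11.9 to -8.72. Requiring background to be cleared on all 6 arrays left 4 lower of 7 member probes in each comparison with ESC, since the dim ones were no longer tested. Of all 25680 probes tested then, 7786 were lower in MDSC, 6441 in WT MDSC and 7679 in Mstn-null MDSC versus ESC. Leave-one-out runs gave 9 to 10 lower member probes in each. The count of higher member probes, Nanog alone, fell to 0 in MDSC versus ESC with the replicate block. It also did so for WT and for Mstn-null MDSC versus ESC with median centring, no filter on dim probes, or only the groups compared. Within slide 2, which held no WT array, it was 0 for Mstn-null MDSC versus ESC. Leaving out 1 array gave 0 to 1 in MDSC versus ESC and 0 for each genotype. The causes were not tested. Equal replicate numbers are not said to mark shared animals or days, and the deviations of same-numbered WT and Mstn-null arrays correlated with r = -0.37 over 33716 probes. A replicate block ended the calls of Nanog (adjusted p = 0.0639) and Tbx3 (0.0559) in MDSC versus ESC, leaving 9 lower member probes, and left 0 called between the genotypes.

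Median centring moved the median of all probes from -0.05 to 0.10 for MDSC against ESC, from -0.14 to 0.08 for Mstn-null MDSC against ESC and from -0.13 to 0.03 between the genotypes. No called difference changed sign in any alternative. Uncalled ones did. With median centring, the Sall4 probe A_51_P145260 turned to 0.0039 for MDSC and 0.12 for Mstn-null MDSC against ESC, and between the genotypes Nanog turned to 0.11 and Klf4 to 0.064. Quantile normalization turned Sall4 A_55_P2173546 to -0.050 between the genotypes. There, normexp turned Esrrb to 0.040, Tfcp2l1 A_55_P2413458 to 0.089, Sall4 A_55_P2173546 to -0.0064, Sall4 A_51_P349087 to -0.28 and Tbx3 to -0.032. Leaving out 1 array gave Klf4 differences of -0.34 to 0.57 in MDSC, -0.29 to 0.62 in WT and -0.38 to 0.52 in Mstn-null MDSC versus ESC. Between the genotypes it gave -0.86 to 0.45 for Esrrb, -0.036 to 0.050 for Sall4 A_55_P2173546, -0.034 to 0.91 for Tfcp2l1 A_52_P175376, -0.10 to 0.0022 for Nanog, -0.11 to 0.31 for Sall4 A_51_P349087 and -0.27 to 0.28 for Tbx3. Over all probes, the count called between Mstn-null and WT MDSC was 8 and ranged from 0 (no filter, 1 value per gene, only these groups, the replicate block, or any 1 array left out) to 25 higher and 21 lower with median centring.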
